A study of Mus musculus with 2 samples.

Results

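The class III POU genes of the mouse, *Pou3f1*, *Pou3f2*, *Pou3f3* and *Pou3f4*, were followed in RNA-seq of ES cells and of embryonic forebrain. They were chosen by gene symbol, and all 4 were found among the 29311 genes listed for both samples, under 5 identifiers. The ES cells are of strain E14, wild type, and were grown without feeder cells in serum and LIF. The forebrain is of stage E10.5 from embryos of strain B6CBAF1/J, also wild type, with RNA taken from single embryos according to the methods of the study, whereas the labels give only a number of cells for both samples. There was 1 sample of each, so no difference has a replicate check and no p-value is given. Strain, culture and tissue differ together between the samples and cannot be told apart.

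POU proteins bind DNA through a bipartite domain, a POU-specific part joined by a linker to a POU homeodomain, and many of them recognize the octamer motif. Class III members (*Pou3f1*, also Oct6 or SCIP; *Pou3f2*, Brn2; *Pou3f3*, Brn1; *Pou3f4*, Brn4) are known as regulators of neural progenitors and neurons, often together with SOX factors, and *Pou3f1* also of the primed epiblast and of Schwann cells. ES cells instead depend on the class V gene *Pou5f1* (Oct4).

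All 4 genes have a single exon in the annotation of the build used by the authors (NCBIM37, mm9). *Pou3f1* lies on chromosome 4 (124334896 to 124337899, plus strand, 3004 bp) and *Pou3f2* on the same chromosome (22413791 to 22415480, minus strand, 1690 bp). *Pou3f3* is found on chromosome 1 (42753991 to 42757052, plus strand, 3062 bp) and *Pou3f4* on chromosome X (108009729 to 108010910, plus strand, 1182 bp). Coding sequence makes up 46.7% of the annotated exon of *Pou3f1*, 79.2% for *Pou3f2*, 48.8% for *Pou3f3* and 91.9% for *Pou3f4*, and the model of *Pou3f3* starts at the first coding base. Levels per length therefore refer to models with unequal amounts of untranslated sequence.

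The coding sequences were aligned to see how closely the members resemble each other, since reads from near-identical copies could be exchanged between them. Pairs were 61.0 to 69.9% identical over all aligned bases, and 79.3 to 85.8% within the longest stretch without gaps, of 473 bases. The 75 bases within the part coding for the POU-specific domain in which the 4 genes resemble each other most are shown in coding direction (mm9), at chr4:124335793-124335867 for *Pou3f1*, chr4:22414304-22414378 on the minus strand for *Pou3f2*, chr1:42755032-42755106 for *Pou3f3* and chrX:108010470-108010544 for *Pou3f4*. Capitals mark the 12 positions at which the genes differ, and the other 63 are shared by all 4.
Pou3f1: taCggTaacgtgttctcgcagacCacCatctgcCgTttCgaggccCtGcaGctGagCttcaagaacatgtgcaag
Pou3f2: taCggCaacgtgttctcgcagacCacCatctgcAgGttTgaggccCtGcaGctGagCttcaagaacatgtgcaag
Pou3f3: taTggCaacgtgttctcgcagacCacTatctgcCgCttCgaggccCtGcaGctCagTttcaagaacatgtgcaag
Pou3f4: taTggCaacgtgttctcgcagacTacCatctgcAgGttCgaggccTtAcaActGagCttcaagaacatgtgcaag
Among all 50-base windows of the members, 3 of *Pou3f1* and 3 of *Pou3f3* lay within 2 mismatches of another member, and 0 of *Pou3f2* and *Pou3f4*. With 100-base windows, no member had any. The read length differs between the labels (100 bp) and the written methods (50 bp), and at either length few windows are shared. Only 1 window of 50 bases, in *Pou3f2*, matched another protein-coding gene exactly.

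The values analysed are those deposited as RPKM. A read on a gene of 1 kb was worth 1.22 units in the ES cell library and 0.819 in the forebrain library, as read from the spacing of low values. The factor behind these units is not given in the sources used here. The ES cell library had 42776812 reads on genes by this measure and the forebrain library 59784223. The spacing also gave the reads behind each value, and intervals are exact Poisson 95% intervals that cover counting error only. Of 76 ribosomal protein genes, 0 were at 0 in either sample. All 7 ES cell markers examined were at least 4-fold higher in ES cells (898.53 to 11505.32 RPKM, against 1.59 to 58.93 in forebrain), and all 10 forebrain markers at least 4-fold higher in forebrain (15.86 to 876.64, against 0 to 17.54 in ES cells). Over all listed genes these shares were 11.3% and 14.4%. Of the forebrain markers, *Lhx2* (876.64) was the only one above *Pou3f3* in forebrain, and the other 9, up to 268.86 for *Emx2*, were below *Pou3f2*.

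In E10.5 forebrain, *Pou3f3*, *Pou3f4* and *Pou3f2* were transcribed at 6.54 to 13.1 times the median level of all listed genes, while none of them exceeded 2 reads in ES cells. *Pou3f1* was the only member with more than 2 reads in ES cells, and it had the lowest level of the 4 in forebrain. All 4 were more than 4-fold higher in forebrain on the scale of log2(RPKM + 1), where 14.4% of all listed genes were. In bulk RNA, a lower share of expressing cells and less RNA per cell cannot be told apart.

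**Figure D1:**
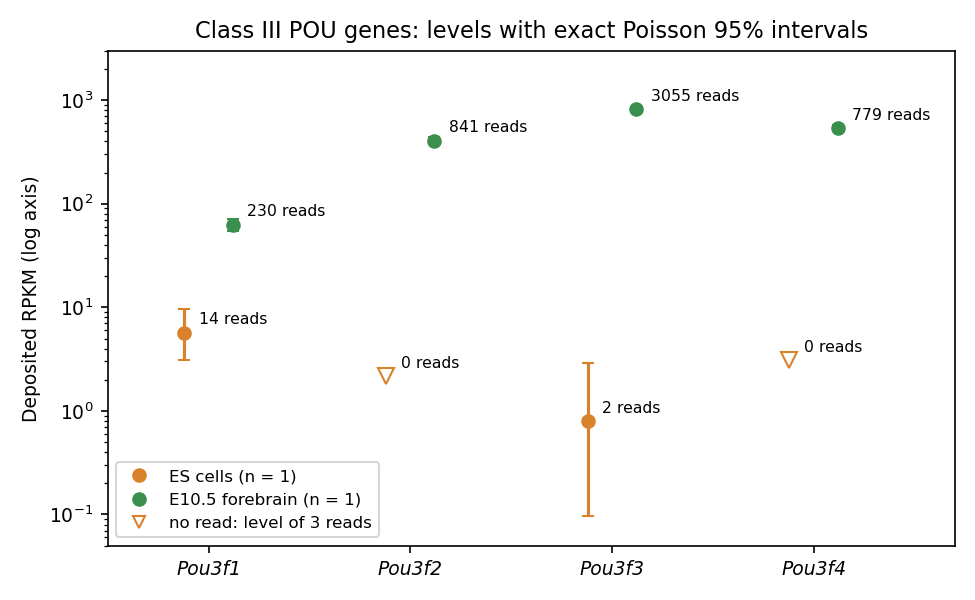
Deposited RPKM of the 4 class III POU genes in ES cells (orange) and E10.5 forebrain (green), on a log axis, with exact Poisson 95% intervals and the inferred reads beside each point (1 sample each). Open triangles stand for genes without a read in ES cells and are drawn at the level of 3 reads. *Pou3f1* had 14 reads in ES cells and *Pou3f3* 2, whereas the forebrain values rest on 230 to 3055 reads.

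*Pou3f3* had 0.80 RPKM in ES cells (2 reads, 0.0966 to 2.88) and 817.33 in E10.5 forebrain (3055 reads, 788 to 847). This is a ratio of 1022, with a counting interval of 283 to 8465, wide because of the 2 reads. In forebrain it ranked at percentile 85.2 of the listed genes, and at percentile 14.6 in ES cells. *Pou3f3* is best known from the forebrain and kidney, and was the highest POU gene of any class in this forebrain sample.

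*Pou3f4* was listed at 0 in ES cells (upper limit 3.81) and had an RPKM of 539.65 in E10.5 forebrain (779 reads, 503 to 579). Its forebrain value, at percentile 79.2, was 174 times a floor of 3 reads in ES cells (3.10). This factor is not a lower limit, since the upper limit of 3.81 lies above that floor. *Pou3f4* is an X-linked gene known from inner ear and neural tube development. Its log2 difference on the log2(RPKM + 1) scale was 9.08.

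*Pou3f2* was likewise listed at 0 in ES cells (upper limit 2.67) and had an RPKM of 407.73 in E10.5 forebrain (841 reads, 381 to 436), at percentile 74.6. Its forebrain value was 188 times the floor of 3 reads in ES cells, again not a lower limit. The factor exceeds that of *Pou3f4* because *Pou3f2* had more reads in forebrain (841 against 779), since exon length cancels in it. *Pou3f2* is known from upper cortical layers and the hypothalamus, and as a factor that helps to convert fibroblasts into neurons. The log2 difference was 8.68 for *Pou3f2* and 8.83 for *Pou3f3*, so that these 3 genes spanned 8.68 to 9.08. Their order on this scale is not resolved, since the counting limits of *Pou3f4* (6.71 to 9.18) and *Pou3f3* (7.67 to 9.59) overlap and a pseudocount of 5 puts *Pou3f3* (7.15) above *Pou3f4* (6.77).

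*Pou3f1* differed from the other members in both samples. It had 5.69 RPKM in ES cells (14 reads, 3.11 to 9.55) and 62.83 in forebrain (230 reads, 54.9 to 71.4). The ratio was 11.04 (6.44 to 20.5), and the log2 difference of 3.25 lay below those of the other 3 genes, whose lowest counting limit was 6.70. In forebrain *Pou3f1* stood near the middle of all listed genes, at percentile 50.1, compared with 28.9 in ES cells. Its ES cell value exceeded the interval of *Pou3f3* in the same sample (0.0966 to 2.88), whereas the upper limit of 3.81 for *Pou3f4* reaches into the interval of *Pou3f1*.

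*Pou3f1* is also listed under a second identifier, a pseudogene model with 2 exons over the same bases (124334889 to 124337899). It had 6.08 in ES cells (15 reads) and 63.52 in E10.5 forebrain (233 reads), a ratio of 10.4. Identifiers with the same exons carry the same values in these tables (2 of 2 such groups in each sample). Equal values would arise if each read counted in full under both identifiers, and also if reads were divided between them. Which of these holds was not tested. The protein-coding identifier was used and the values were not added, so *Pou3f1* would be understated if its reads were divided.

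The order of levels in E10.5 forebrain was *Pou3f3*, *Pou3f4*, *Pou3f2* and *Pou3f1*. *Pou3f3* was 1.51 times as high as *Pou3f4* (1.40 to 1.64) and *Pou3f4* was 1.32 times as high as *Pou3f2* (1.20 to 1.46), differences beyond counting error for each pair of neighbours. *Pou3f2* was 6.49 times as high as *Pou3f1* (5.61 to 7.55). Whether these steps exceed the spread between embryos is not known from 1 sample. The order of *Pou3f4* and *Pou3f2* also depends on dividing by exon length, since *Pou3f2* had more reads (841 against 779). In ES cells the order among *Pou3f2*, *Pou3f3* and *Pou3f4*, with 0, 2 and 0 reads, was not detectable at this depth.

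The RPKM values of the 4 genes summed to 6.49 in ES cells (3.71 to 10.54) and to 1827.54 in forebrain (1777 to 1879), a ratio of 282 (169 to 507). These limits pool the reads of the 4 genes with equal weight and are approximate. *Pou3f3* held 44.7% of the forebrain sum, *Pou3f4* 29.5%, *Pou3f2* 22.3% and *Pou3f1* 3.44%. In ES cells *Pou3f1* held 87.7% and *Pou3f3* the other 12.3%, from 16 reads in all. The family thus differed between the samples in its composition as well as in its sum.

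Few genes combined a forebrain level of this height with so few reads in ES cells. Of the 4347 genes at or above the level of *Pou3f3* in forebrain, 11 (0.253%) had under 3 reads in ES cells, *Pou3f3* included. For *Pou3f4* these were 24 of 6095 genes (0.394%), and for *Pou3f2* 36 of 7431 (0.484%). The log2 differences of *Pou3f2*, *Pou3f3* and *Pou3f4* lay at percentiles 99.87, 99.89 and 99.92 of all listed genes, and that of *Pou3f1* at 92.5.

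**Figure D2:**
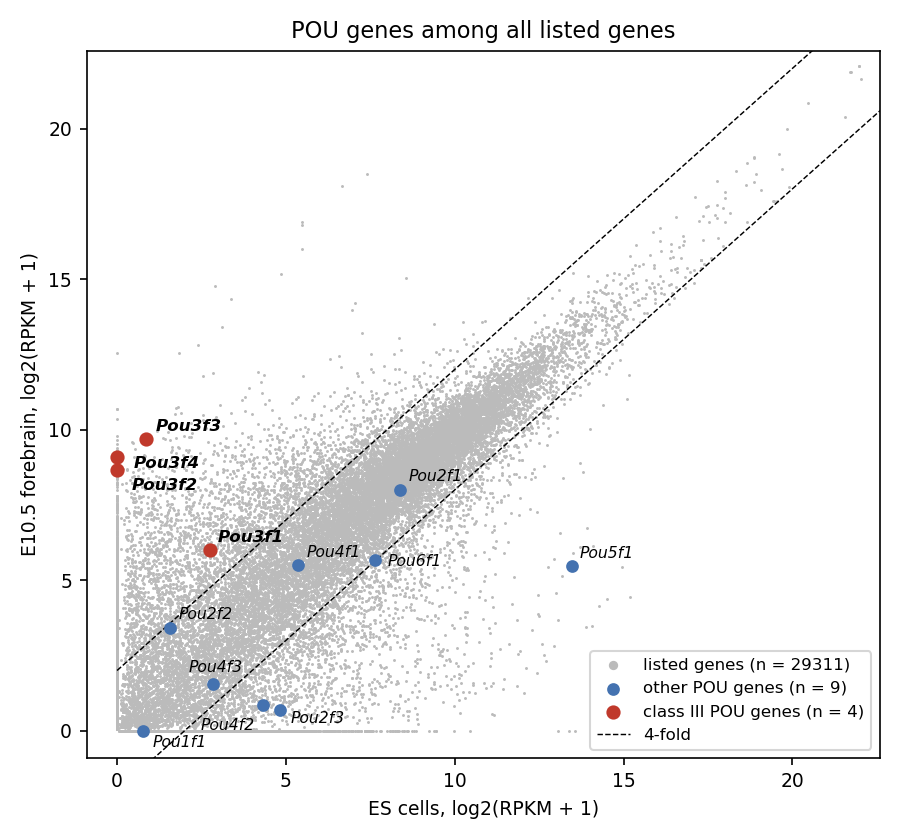
Each point is a listed gene (29311, grey), with log2(RPKM + 1) in ES cells on the x axis and in E10.5 forebrain on the y axis, class III POU genes in red, 9 of the other 10 listed POU genes in blue and dashed lines at 4-fold. *Pou3f2*, *Pou3f3* and *Pou3f4* lie at the left edge, *Pou3f1* nearer to the upper dashed line, and *Pou5f1* far to the lower right.

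The other POU genes were compared next, to see whether the difference extends to the whole superfamily. Of 10 other POU genes listed, 0 were at least 4-fold higher in forebrain, 3 were at least 4-fold higher in ES cells and 7 lay between, with a median log2 difference of -1.03 against 0.0127 over all listed genes. Among all listed genes 11.3% were at least 4-fold higher in ES cells. *Pou5f2* is not listed, and the tables hold no gene at 0 in both samples.

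*Pou5f1*, the class V regulator of pluripotency, had an RPKM of 11243.84 in ES cells (20774 reads) and of 42.9 in forebrain (118 reads), and was 262-fold higher in ES cells (219 to 317). *Pou2f3*, known from skin and chemosensory tuft cells, had 27.16 in ES cells and 0.60 in forebrain (60 and 2 reads), a ratio of 45.3 (11.9 to 378). *Pou4f2*, a retinal ganglion cell factor, had 18.94 and 0.81 (50 and 3 reads), a ratio of 23.4 (8.03 to 125). These 3 POU genes passed 4-fold in the direction opposite to that of class III.

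*Pou2f1* (Oct1), which is expressed in most tissues, had 334.89 in ES cells and 256.07 in forebrain. *Pou6f1* had 199.15 and 49.81, a ratio of 4.00 (3.54 to 4.53), which on the log2(RPKM + 1) scale lay just short of 4-fold, at -1.98. *Pou4f1*, a sensory neuron factor, had 39.86 and 43.93, respectively. *Pou2f2* (Oct2) had 1.97 in ES cells and 9.74 in forebrain (4 and 32 reads), the only other POU gene with a higher value in forebrain by more than its counting interval (ratio 4.94, 1.90 to 20.9). The pseudocount of 1 lowers its log2 difference to 1.85, short of 4-fold. *Pou4f3* had 6.21 and 1.91 (6 and 3 reads). *Pou1f1*, the pituitary factor, rested on 1 read in ES cells and 0 in forebrain.

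Class III made up 0.0546% of the summed RPKM of all 14 listed POU genes in ES cells and 81.8% in forebrain. Class V, with *Pou5f1* alone, made up 94.7% and 1.92%, and class II 3.06% and 11.9%. In forebrain *Pou3f3*, *Pou3f4* and *Pou3f2* were the 3 highest POU genes, followed by *Pou2f1* and *Pou3f1*. In ES cells *Pou3f1* ranked 8 of 14 and *Pou3f3* ranked 10. The shares add up within each sample, so a high share of one class lowers those of the others.

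**Figure D3:**
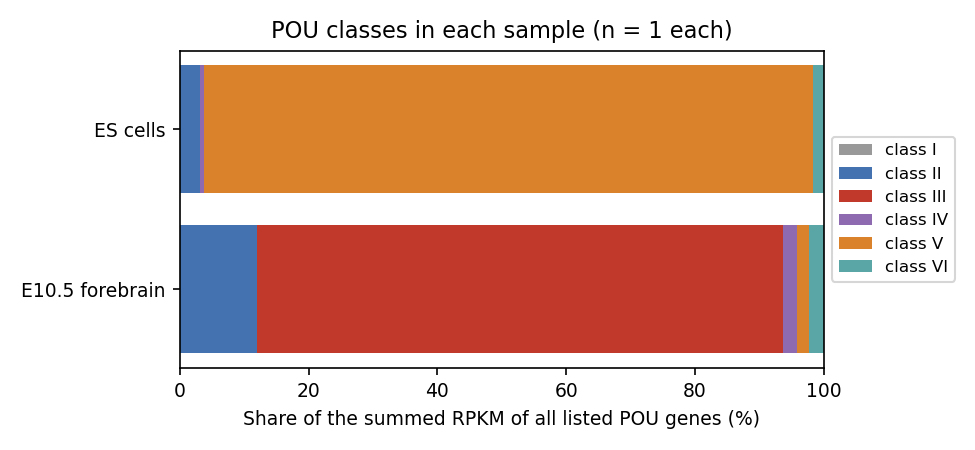
Share of each POU class (percent of the summed RPKM of the 14 listed POU genes, x axis) in ES cells and E10.5 forebrain, 1 sample each. Class V fills 94.7% of the bar of ES cells and class III 81.8% of that of forebrain, while the 0.0546% of class III in ES cells is too narrow to be seen.

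Genes whose products are known to act with class III POU proteins were mostly higher in forebrain as well. Of 7 listed partner genes, 6 were at least 4-fold higher in forebrain and 1 lay between, with a median log2 difference of 4.31. Over all listed genes 14.4% were at least 4-fold higher in forebrain, and the median was 0.0127. *Sox11* (139.19 in ES cells and 3542.06 in forebrain) and *Sox4* (112.79 and 2263.3), SOX factors of young neurons, were 25.4-fold (22.4 to 29.2) and 20.1-fold (18.2 to 22.1) higher. *Zic1*, a zinc finger factor of neural progenitors, had 5.43 and 777.75 RPKM, a ratio of 143 (98.2 to 224).

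*Sox2* was the exception among the partners. It is shared by pluripotent cells and neural progenitors, where it pairs with Oct4 and with class III POU proteins, respectively. Its RPKM was 7181.95 in ES cells and 2602.06 in forebrain, 2.76-fold higher in ES cells (2.68 to 2.84), and it stood at percentiles 98.0 and 95.6. The RPKM of *Pou5f1* was 1.57 times that of *Sox2* in ES cells, while the summed RPKM of class III was 0.702 times that of *Sox2* in forebrain. *Sox1* is not listed.

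Of 7 genes known as targets of class III POU proteins, 4 were at least 4-fold higher in forebrain, 0 in ES cells and 3 lay between (median log2 difference 3.13). Among all listed genes, 14.4% and 11.3% passed 4-fold towards forebrain and ES cells, respectively. *Nes*, the intermediate filament of neural progenitors with a POU site in its neural enhancer, had 182.9 in ES cells and 4127.24 in forebrain. *Fabp7*, a fatty acid binding protein of radial glia, had 4.88 and 3551.25, a ratio of 728 (311 to 2240) on 5 reads in ES cells. *Dll1*, a Notch ligand, had 10.42 and 781.81, and *Cdk5r1*, an activator of the kinase Cdk5 in neurons, had 30.42 and 274.91. *Dab1*, which acts in reelin signalling, had near-equal values (71.23 and 70.91), as did *Egr2*, a target in Schwann cells (10.78 and 9.24, from 30 and 38 reads). *Crh*, a target in the hypothalamus, had 0 and 2 reads.

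*Pou3f1* is also a gene of the primed epiblast, and other genes of that state were therefore examined. Of 9 listed, 3 were at least 4-fold higher in forebrain (*Otx2*, *Sall2* and *Tead2*), 2 in ES cells and 4 lay between, with a median of 1.09, beside 14.4% and 11.3% of all listed genes past 4-fold in each direction. *Otx2*, which is also a forebrain gene, had 78.53 in ES cells and 989.44 in forebrain, and *Tead2* had 709.95 and 3472.76. *Dnmt3b*, a de novo DNA methyltransferase, had 1514.73 and 233.65, 6.48-fold higher in ES cells (6.12 to 6.86). *Fgf5*, the growth factor that marks the primed state, had only 5.13 in ES cells from 11 reads, about the level of *Pou3f1* there, and 1 read in forebrain. The ratio of *Fgf5* in ES cells over forebrain was 10.47 (2.38 to 706). *Pim2* had 159.43 and 51.43, with the higher value in ES cells as well.

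**Figure D4:**
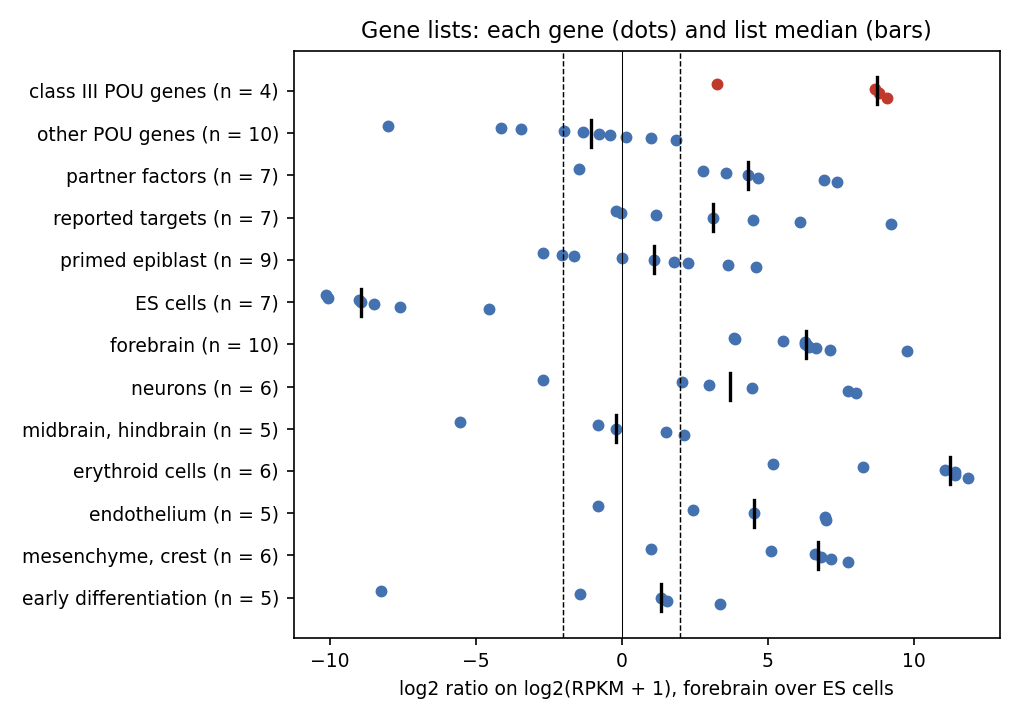
Difference between E10.5 forebrain and ES cells (log2 ratio on log2(RPKM + 1), x axis) of each gene (dots) in the class III POU family (red) and in 12 gene lists (blue), with list medians as bars and dashed lines at 4-fold. The class III genes lie at 3.25 and from 8.68 to 9.08, while the other POU genes have a median of -1.03.

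Markers of other cell types were then examined, as either sample could hold several. Over all listed genes, 14.4% were at least 4-fold higher in forebrain. All 6 erythroid genes were at least 4-fold higher in forebrain, with sums of 373 and 799065 RPKM, led by *Hbb-y* (367633.15), *Hbb-bh1* (277515.8), *Hba-a1* (123310.34) and *Hba-x* (27785.74). For head mesenchyme and neural crest this held for 5 of 6 genes (sums 49.9 and 4852), led by *Pdgfra* (1795.6), *Twist1* (1556.07), *Foxc1* (565.36) and *Col1a1* (514.26). *Sox10*, which defines neural crest and glial precursors, did not pass 4-fold, with 9.9 in ES cells and 20.68 in forebrain. For endothelium it held for 4 of 5 genes (sums 636 and 1861), led by *Kdr* (601.26) and *Cdh5* (325.7), and *Pecam1* was higher in ES cells (551.14 against 316.51). Of 6 neuronal genes, 5 were at least 4-fold higher in forebrain, with *Tubb3* at 3318.34 and *Dcx* at 253.17. The exception was *Stmn2*, with 6910.29 in ES cells and 1056.31 in forebrain.

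Of midbrain and hindbrain, 5 genes had 3.39 to 24.74 RPKM in the forebrain sample, the highest being *En2*. That level lay above the lowest forebrain marker, *Six3* (15.86), and below the next lowest, *Dlx2* (65.0). *Gbx2* had 459.98 in ES cells and 8.98 in forebrain and passed 4-fold towards ES cells. *Pax2* passed it in the other direction, with 0 reads in ES cells and 24 in forebrain, 5.37 times the level of 3 reads in ES cells. *En1* had 2.18 in ES cells and 8.03 in forebrain. Among 5 genes of early differentiation, *T* had 1112.09 in ES cells and 2.66 in forebrain, *Sox17* was at least 4-fold higher in forebrain (3.1 and 41.29), and *Eomes*, *Gata4* and *Gata6* lay between, with ES cell values of 90.06, 3.12 and 1.34. The part of these other cell types in the values of the class III genes was not tested.

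The 22 annotated genes with at least 3 reads in either sample that lie within 250 kb of a member were examined to see how far the difference extends along the chromosome. Of these, 1 was at least 4-fold higher in forebrain and 1 in ES cells, where 14.4% and 11.3% of all listed genes were, with a median log2 difference of -0.0642 (0.0127 over all listed genes). For *Pou3f1* there were 14 such genes with differences of -1.72 to 1.72, among them *Utp11l* at a gap of 17.5 kb (463.59 and 440.46) and *Sf3a3*, a splicing factor subunit (1729.96 and 1677.35). *Fhl3*, at 40.05 kb, had 50.42 and 146.01. For *Pou3f2* and *Pou3f4* there were 3 and 2 such genes, and 0 of them passed 4-fold in either direction. The nearest to *Pou3f2* was a pseudogene, *Gm11878*, with 521.51 and 343.61, and *Fbxl4* at 52.6 kb had 101.66 and 133.52.

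The exception was *2610017I09Rik*, which starts 30.2 kb upstream of *Pou3f3* on the opposite strand (chromosome 1, 42705223 to 42723757, mm9). RefSeq names it *Pantr1*, a long non-coding RNA also called linc-Brn1a, whereas the annotation of the build treats it as protein-coding with 198 bp of exon. It had 6.17 RPKM in ES cells (1 read) and 3793.46 in forebrain (917 reads), a ratio of 615 (110 to 24323). The log2 difference of 9.05 compares with 8.83 for *Pou3f3*. Its level per length was higher than that of *Pou3f3*, although it had fewer reads, and its short exon model makes this level uncertain. On the other side of *Pou3f3*, *Mrps9* at a gap of 151 kb, which encodes a mitochondrial ribosomal protein, had 1891.28 and 1330.8. The small RNA *SNORA17* near *Pou3f3* had 56.18 and 12.23 from 6 and 2 reads, and its ratio of ES cells over forebrain had a counting interval of 0.800 to 45.3.

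**Figure D5:**
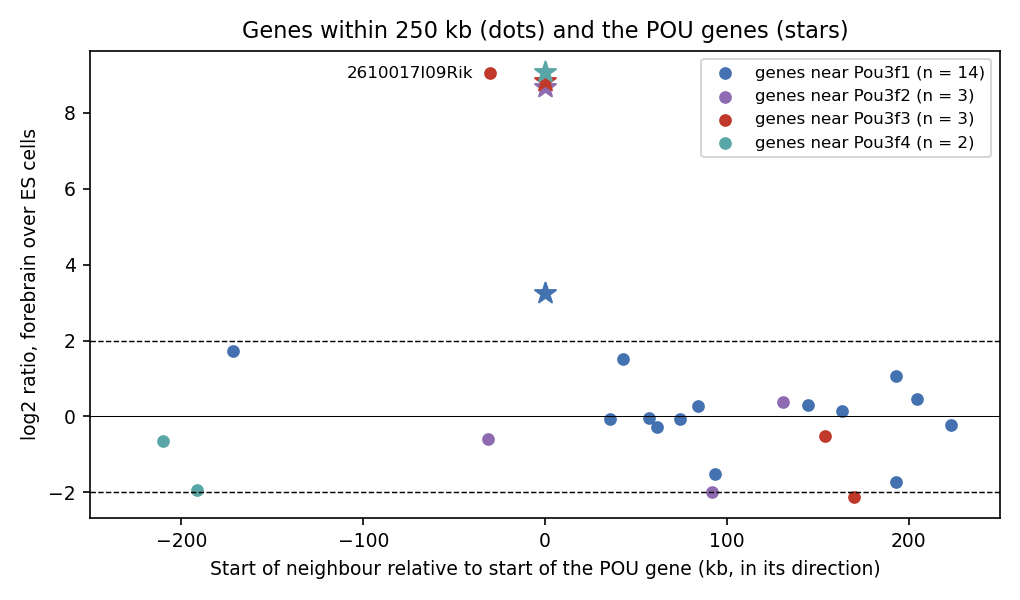
Difference between E10.5 forebrain and ES cells (log2 ratio on log2(RPKM + 1), y axis) of the 22 genes within 250 kb of a class III POU gene (dots), by the distance of their start from the start of that gene in kb (x axis, positive in its direction of transcription). Stars at 0 kb are the class III genes, and dashed lines mark 4-fold. *2610017I09Rik*, upstream of *Pou3f3*, lies at 9.05 and the other neighbours between -2.11 and 1.72.

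The members without more than 2 reads in ES cells were also compared in the sequence before their start. The RefSeq sequences used here (GRCm38.p6) hold this region for *Pou3f2*, *Pou3f3* and *Pou3f4*, 3 of the 4 genes. The 250 bases before the start are shown in the direction of transcription, at chr4:22488367-22488616 on the minus strand for *Pou3f2*, chr1:42695518-42695767 on the plus strand for *Pou3f3* and chrX:110814129-110814378 on the plus strand for *Pou3f4* (all GRCm38.p6, not the build of the tables). Capitals mark CCAAT in either orientation (CCAAT or ATTGG).
Pou3f2: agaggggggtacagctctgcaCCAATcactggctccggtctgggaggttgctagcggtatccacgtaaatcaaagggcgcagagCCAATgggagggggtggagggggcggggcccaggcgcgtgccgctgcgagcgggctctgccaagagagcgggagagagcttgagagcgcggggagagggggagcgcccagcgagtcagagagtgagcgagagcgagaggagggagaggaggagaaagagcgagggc
Pou3f3: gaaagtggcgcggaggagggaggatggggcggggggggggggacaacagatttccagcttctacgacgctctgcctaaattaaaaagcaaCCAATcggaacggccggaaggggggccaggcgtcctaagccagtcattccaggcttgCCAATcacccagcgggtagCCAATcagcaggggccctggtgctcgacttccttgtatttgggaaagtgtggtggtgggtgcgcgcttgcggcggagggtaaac
Pou3f4: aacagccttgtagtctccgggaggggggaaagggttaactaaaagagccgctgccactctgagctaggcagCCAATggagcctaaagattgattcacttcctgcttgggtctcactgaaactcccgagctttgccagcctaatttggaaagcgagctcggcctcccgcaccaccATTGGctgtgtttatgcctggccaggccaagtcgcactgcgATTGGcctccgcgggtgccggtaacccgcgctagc
CCAAT was found 2 times before *Pou3f2*, 3 times before *Pou3f3* and 3 times before *Pou3f4*. At least 1 match occurs in 33.8% and at least 2 in 10.1% of 32851 regions of the same length. The matches begin at 229 and 166 bases before the start of *Pou3f2*, at 160, 103 and 84 for *Pou3f3*, and at 179, 76 and 35 for *Pou3f4*, the last 2 in the reverse orientation. GGGCGG, searched on both strands, was found 1 time each in *Pou3f2* and *Pou3f3* (32.7% of all regions). Neither the octamer ATGCAAAT (1.601% of all regions) nor TATAAA (12.4%) was found in these windows on either strand. The motifs do not overlap. The regions contain 18, 15 and 13 CpG dinucleotides and have a GC content of 66.8, 60.8 and 58.0%, compared with medians of 6 and 52.4% over all regions.

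The exons of the members are GC-rich as well, with 61.5% for *Pou3f1*, 63.0% for *Pou3f2*, 59.8% for *Pou3f3* and 56.7% for *Pou3f4*, against a median of 50.1% over 19620 listed protein-coding genes. Across these genes GC content and the log2 difference had a Spearman coefficient of -0.0065, a description across genes of the same 2 libraries.

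The protein-coding genes nearest to each member in the plane of both samples, by Euclidean distance on log2(RPKM + 1), were listed to show what else had such levels. With 2 samples this likeness is a pair of matching levels and no more. Nearest to *Pou3f3* were *Fli1* (0.39 and 746.57), *Alx4* (0.35 and 767.35), *Nr2f1* (1.28 and 983.44), *Scube1* and *Gpm6a*, at distances of 0.40 to 0.51 log2 units. *Nr2f1* encodes a nuclear receptor of the developing cortex, whereas *Fli1* is known from endothelium and blood and *Alx4* from head mesenchyme. Nearest to *Pou3f2* were *Myt1* (0 and 419.81), *Nr2e1* (0 and 393.27), *Igf1*, *Eya2* and *Dlk1*, with distances of 0.042 to 0.29. *Myt1* and *Nr2e1* (Tlx) encode factors of neurons and of neural stem cells.

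Nearest to *Pou3f4* were *Gypc* (0 and 538.26), a red cell membrane protein gene, *Eya2*, *Aplnr*, *Myt1* and *Pou3f2* itself, at a distance of 0.40. The genes nearest to *Pou3f1* were *Hhat*, *Col22a1*, *C1qtnf4*, *Cd82* and *Speg*, with 5.37 to 6.09 in ES cells and 58.56 to 69.25 in forebrain. Neural genes and genes known from blood, vessels or mesenchyme were both among the nearest.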

How the data were processed

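RNA-seq tables of 2 samples, 1 of ES cells and 1 of E10.5 forebrain, were analysed. The authors depleted total RNA of rRNAs, prepared strand-specific libraries, mapped single-end reads to NCBIM37 (mm9) and deposited 1 RPKM value per gene, obtained with HTSstation. The processing notes of the submitters name Bowtie 0.12.7. The scaling between samples is not given in the sources used here, and the deposited RPKM was not rescaled.

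All 29311 listed genes were matched to the annotation of the same build. The value of 1 read was taken from the spacing of RPKM times exonic length in genes of up to 2500 bp. Of 5704 low values in ES cells 58.8% lay within 0.05 of a whole multiple, and of 6190 in E10.5 forebrain 61.0%. Why the other values lay off whole multiples was not tested. Reads were rounded to whole numbers, and the intervals treat these as counts. The method was checked on simulated data. Ratios of reads have exact binomial (Clopper-Pearson) 95% intervals. For the summed RPKM, each sum was scaled by the Poisson limits of its pooled reads, as if every read had equal weight. The interval of its ratio was taken from the limits of both sums. Differences were taken on log2(RPKM + 1), a scale that understates changes of low genes.

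The members, gene lists and alternatives were chosen with earlier results of these data known, and the motifs with the sequences in view. Genes named are the members, all other POU genes, in each other list the 4 highest and those that differ in direction, neighbours within 250 kb, and the 5 genes nearest in level, and not every gene that meets this rule is described. The values of 2 list genes are not reported here, although list counts include them. Genes of the short lists were named beyond it after their values were seen. Of *Sox4*, listed under 2 identifiers, the longer protein-coding model was used. Alternatives covered the pseudocount, scaling, fold, gene background, gene length used for the spacing, and division by length. Coding sequences were aligned with mafft 7.526. Python 3.11.15, numpy 2.4.6, pandas 2.3.3, scipy 1.17.1 and matplotlib 3.10.9 were used.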

Additional observations from a re-analysis of the deposited data

How the results depend on the processing

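All 4 class III genes remained past the fold, higher in forebrain, under each pseudocount, scaling, fold of 2 or 8 and gene background that was tried, and no difference changed direction. The size of the log2 difference depended on the pseudocount where ES cells had 0 to 2 reads. With 0.1 it was 11.99 for *Pou3f2*, 9.83 for *Pou3f3* and 12.40 for *Pou3f4*, and with 5 it was 6.37 for *Pou3f2*, 7.15 for *Pou3f3* and 6.77 for *Pou3f4*, so that *Pou3f3* then had the largest difference. Division by the sum of RPKM gave 8.95 for *Pou3f2* and 9.35 for *Pou3f4*, and shifted the median of all genes from 0.0127 to 0.263, while division by the median of all genes shifted it to -0.290. The share of all listed genes past the fold, higher in forebrain, was 25.8% with a fold of 2 and 8.64% with a fold of 8.

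The percentiles in forebrain depended on the genes ranked. Among protein-coding genes they were 42.2 for *Pou3f1*, 70.6 for *Pou3f2*, 84.0 for *Pou3f3* and 76.5 for *Pou3f4*. Among all annotated genes they were 60.8, 80.1, 88.3 and 83.7. Among genes that reach a deposited RPKM of 1 in one or both samples they were 46.5, 72.9, 84.1 and 77.7. In ES cells the percentiles of *Pou3f1* and *Pou3f3* were 44.1 and 32.9 among all annotated genes, in place of 28.9 and 14.6. With both identifiers of *Pou3f1* added, an alternative chosen after seeing the data, the ratio of the sums fell from 282 to 150.4. Whether the same reads then count again was not tested. Without division by length, *Pou3f4* held 15.9% of the forebrain sum.

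Of the other POU genes, the number higher in forebrain changed from 0 to 2 with a pseudocount of 0.1, to 1 when divided by the sum and to 2 with a fold of 2, and the number higher in ES cells from 3 to 5 with a fold of 2. Of the partners, 1 was higher in ES cells with a fold of 2. Of the primed epiblast genes, 5 were higher in forebrain with a fold of 2, and the number higher in ES cells was 1 with a pseudocount of 5 or division by the sum, and 0 with a fold of 8. In all, 232 of 277 alternative values stayed within counting error or within 1.5 times for a count. For the main results, which leave out the marker lists among others, this held for 87 of 116. No paired analysis was possible because each group holds 1 sample. With 1 sample each, variation between cultures or embryos could not be assessed.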
